A study of Mus musculus with 12 samples.

Results

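Rod photoreceptors sorted from mice 5 months of age were compared with rods sorted from mice 1.5 months of age, the first step of adult life in a series of 3 ages. The members were chosen by the age in the sample labels: the 4 arrays of 5 months (A29, B29, C29 and A30) and the 4 arrays of 1.5 months (C21, B21, D21 and E21), 8 of the 12 arrays of the series. All mice are given in the labels as C57BL/6 and carried the Nrlp-EGFP transgene, in which the Nrl promoter drives a green fluorescent protein in rods, and no mouse was treated. Each of the 4 replicates of an age was a separate biological sample on 1 Affymetrix mouse array, and the sources do not say whether a replicate pooled several mice. Values are log2 units relative to the median of the probe set in the 12 arrays, which shows how arrays differ but not how abundant an RNA was.

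Rods are the photoreceptors of dim light, and they make up most of the cells of the mouse retina. They sit among the most energy-demanding cells of the body, with mitochondria packed into the inner segment to supply oxidative phosphorylation, in which the respiratory chain passes electrons to oxygen and builds a proton gradient that ATP synthase uses. Mice are sexually mature at the younger age and full adults at the older one.

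The rod identity of the samples could be checked only as a difference, since the values hold no levels. None of 28 genes of rod phototransduction and the outer segment passed the test between the ages, against 1.12% higher and 1.07% lower over all genes. Their median was between -0.03 and 0.04 on each of the 8 arrays. The single differences ran from -0.25 to 0.32. For 7 of the 28 the ages did not overlap, against 13.2% of all genes. Gnat1, the rod transducin, had a log2 difference (5 minus 1.5 months) of -0.01 (SE 0.07), and Pde6b, a subunit of the rod phosphodiesterase, one of 0.06 (SE 0.07). Among the 8 arrays, A30 stood apart. On A30 the mean of the probe sets of Xist, made by the inactive X chromosome of female cells, was -7.81, against -0.03 to 0.60 on the other 7 arrays, and the Y-linked gene Eif2s3y was at 5.66 against -0.57 to 0.09. The median of 13 cone marker genes was 1.92 on A30 and between -0.75 and -0.03 on the other 7 arrays, and 0 of the 13 passed the test between the ages. The 4 arrays of 12 months lay on the side of A30 in all 3 measures. There Xist was at -7.76 to -6.76, Eif2s3y at 5.76 to 5.93 and the cone median at 0.51 to 1.86. Without A30 the median difference of the cone list was -0.35, with 10 of 13 below 0 and none that passed. By Xist and Eif2s3y, A30 and the 4 arrays of 12 months had the pattern of male cells, and the other 7 arrays that of female cells. Results are therefore given with and without A30, and the parts of sex and of the cone signal in them were not tested. At 1.5 months, C21, B21 and E21 lay more than 1 log2 unit from D21 and all older arrays on 23 probe sets. Without these 3 arrays D21 alone stands for 1.5 months, which is too few for a count of calls. The labels give C21, B21 and E21 the same strain as the rest, and whether the genetic background of the mice differed was not tested. Of 125 markers in 12 lists of other cell types, 1 was higher and 1 lower. These counts are near the shares over all genes (1.12% and 1.07%) and do not measure purity. The list medians of the difference ran from -0.27 to 0.22, and without A30 from -0.22 to 0.32. Markers of the retinal pigment epithelium had 13 of 14 differences above 0 (median 0.22), and 14 of 14 without A30 (median 0.32). Those of Muller glia had 11 of 15 above 0 (median 0.14), and 14 of 15 without A30 (median 0.28). The medians of both lists on single arrays overlapped between the ages. For the retinal pigment epithelium they were -0.11, -0.15, 0.24 and -0.17 on C21, B21, D21 and E21. On A29, B29, C29 and A30 they were 0.09, 0.22, 0.37 and -0.20. For Muller glia they were -0.17, -0.44, 0.25 and 0.20, and then 0.04, 0.25, 0.46 and -0.50. With D21 alone for 1.5 months, the median differences of these lists were -0.11 and -0.18. No gene of either list passed, and their part in the rises was not tested. In sorted bulk samples, fewer cells of a type and less RNA per cell cannot be told apart.

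At an adjusted p under 0.05 and at least 1.5-fold, 264 of 45037 probe sets were higher at 5 months (0.586%) and 183 were lower (0.406%). Without A30 the counts were 171 (0.38%) and 118 (0.262%), and 144 higher and 77 lower probe sets passed in both fits. The 4 arrays of one age lay wholly beyond those of the other for 263 of the 264 and 181 of the 183, against 6.43% and 6.06% of all probe sets in these directions, and the choice by a small p nearly fixes such counts. Over genes, each the mean of its probe sets, 203 of 18193 rose (1.12%) and 195 fell (1.07%) with an adjusted p under 0.05, and without A30 138 (0.759%) and 171 (0.94%). Many probe set calls did not hold in every fit with an array left out. With each of the 8 arrays left out in turn, 61 higher and 23 lower probe sets always passed. The count of higher probe sets was lowest without E21 (73 higher, 29 lower), and that of lower ones without A29 (87 and 28). Leaving out any array also lowers the power of the test, and the influence of single arrays was not measured. When the number in the sample codes, which occurs at 1 age only, entered as a random block (correlation 0.206), 7 probe sets were higher and 4 lower. These were the probe sets of Col4a3 (both of its probe sets), Hfe, Rgs20, Sfpq, Zfp934 and Zfp445 on the higher side, and of Uqcr10 (2 of its 3 probe sets), Plekhg1 and Hddc3 on the lower side.

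The 12 most raised probe sets among those that passed with and without A30 and whose ages did not overlap ran from 1.50 to 3.64 on the log2 scale, each probe set with 1 named gene. Col4a3, a chain of the collagen IV network of basement membranes, was at -2.54, -2.74, -1.89 and -2.71 on C21, B21, D21 and E21 and at -0.05, 0.05, 0.34 and -0.47 on A29, B29, C29 and A30. As the choice required, every array of 5 months was above every array of 1.5 months. The rise was 2.44 (SE 0.21, adjusted p = 0.000696). Btnl9, a butyrophilin-like membrane protein, had the largest rise, 3.64 (SE 0.56, adjusted p = 0.0123). Its values at 1.5 months were -3.39, -3.92, -1.56 and -3.83, with D21 well above the others, and at 5 months 0.26, 0.03, 1.59 and -0.03. Its call was lost without E21 (adjusted p = 0.0511).

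Ly75, an endocytic receptor also known as DEC-205, was at -2.98, -2.50, -1.93 and -1.92 at 1.5 months and at -0.05, 0.05, 0.54 and -0.78 at 5 months, a rise of 2.27 (SE 0.33). Clic6, of the chloride intracellular channel family, was at -1.28, -2.25, -2.10 and -2.46 and then at 0.16, -0.21, 0.84 and -0.16, a rise of 2.18 (SE 0.26). Glb1l3, a relative of beta-galactosidase, rose by 2.02 (SE 0.25) and Rgs20, which shortens signals of G proteins, by 1.68 (SE 0.18). For each of these genes the call held with each of the 8 arrays left out, of which the choice itself required only A30. The others of the 12 were Col25a1 (2.32), a membrane collagen, Rdh9 (2.06), a retinol dehydrogenase, Ect2 (1.96), which acts in cytokinesis, Hfe (1.77), a relative of class I histocompatibility proteins that binds the transferrin receptor, Col19a1 (1.57), another collagen, and Tcea3 (1.50), a transcription elongation factor. In 8 of the 12, C29 was the highest of the 8 arrays, as for Col25a1, at 2.17 on C29 and -0.55 to 0.06 on the other arrays of 5 months. The call of Col25a1 and Col19a1 was lost when any of 6 of the 8 arrays was left out, that of Ect2 without E21, A29 or B29, and that of Rdh9 without B21 or B29. For Col25a1, Col19a1 and Rgs20 the other probe sets of the gene were smaller, at 0.24 for Col25a1, 0.41 and 0.88 for Col19a1, and 0.22 and 0.46 for Rgs20, and none of these passed with all arrays.

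The 12 most lowered probe sets chosen in the same way ran from -1.23 to -2.71. The lowest of all that passed, with no named gene here, was at -3.99. It is 1 of the 23 probe sets on which C21, B21 and E21 stood apart. There D21 was at -0.03 and A30 at 0.03, and with D21 alone for 1.5 months the difference was -1.02. Uqcr10, a small subunit of complex III, stood at 2.72, 1.90, 2.36 and 2.80 on C21, B21, D21 and E21 and at -0.34, -0.63, -0.10 and 0.01 on A29, B29, C29 and A30. As the choice required, all 4 arrays of 5 months were lower than any of 1.5 months. The difference was -2.71 (SE 0.27, adjusted p = 0.00186). Its other probe sets fell as well, by 1.51 (adjusted p = 0.000821) and 0.77 (adjusted p = 0.00804) on the log2 scale. Camk2n1, an inhibitor of the calcium-dependent kinase CaMKII, was at 0.82, 0.23, 0.43 and 0.52 at 1.5 months and at -1.29, -1.65, -1.95 and -1.25 at 5 months, a difference of -2.04 (SE 0.29). The second probe set of Camk2n1 had -0.06 (adjusted p = 0.851), so the fall was seen by 1 of its probe sets. Fos, the immediate early transcription factor, was at 0.78, -0.11, 0.99 and 0.30 at 1.5 months and at -0.81, -0.69, -0.85 and -0.93 at 5 months, a fall of 1.31 (SE 0.20, adjusted p = 0.0126). The Fos values were spread at 1.5 months (SD 0.49) and close together at 5 months (SD 0.10).

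Of the other lowered probe sets, Plekhg1 (-1.58), a guanine nucleotide exchange factor, Sync (-1.57), the intermediate filament protein syncoilin, Lbh (-1.55), a transcriptional cofactor, and Stag3 (-1.24), a meiotic cohesin subunit, passed with each of the 8 arrays left out. The rest did not pass in every such fit. Rspo2 (-1.79), a secreted enhancer of Wnt signals, failed without B21, E21, A29 or C29, Bzw2 (-1.30) without E21 or B29, and Mob3c (-1.26) in 5 of the 8 fits. Hr (-1.44), the hairless co-repressor, and Adgrl1 (-1.23), the adhesion receptor latrophilin-1, failed in 6 of the 8. Second probe sets of Plekhg1 (-0.15), Hr (-0.09) and Rspo2 (0.11), and the further ones of Sync (-0.03 and -0.21), Lbh (-0.72 and -0.01), Bzw2 (-0.24 and 0.05) and Adgrl1 (-0.63) did not pass, while that of Mob3c did (-0.93).

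**Figure D1:**
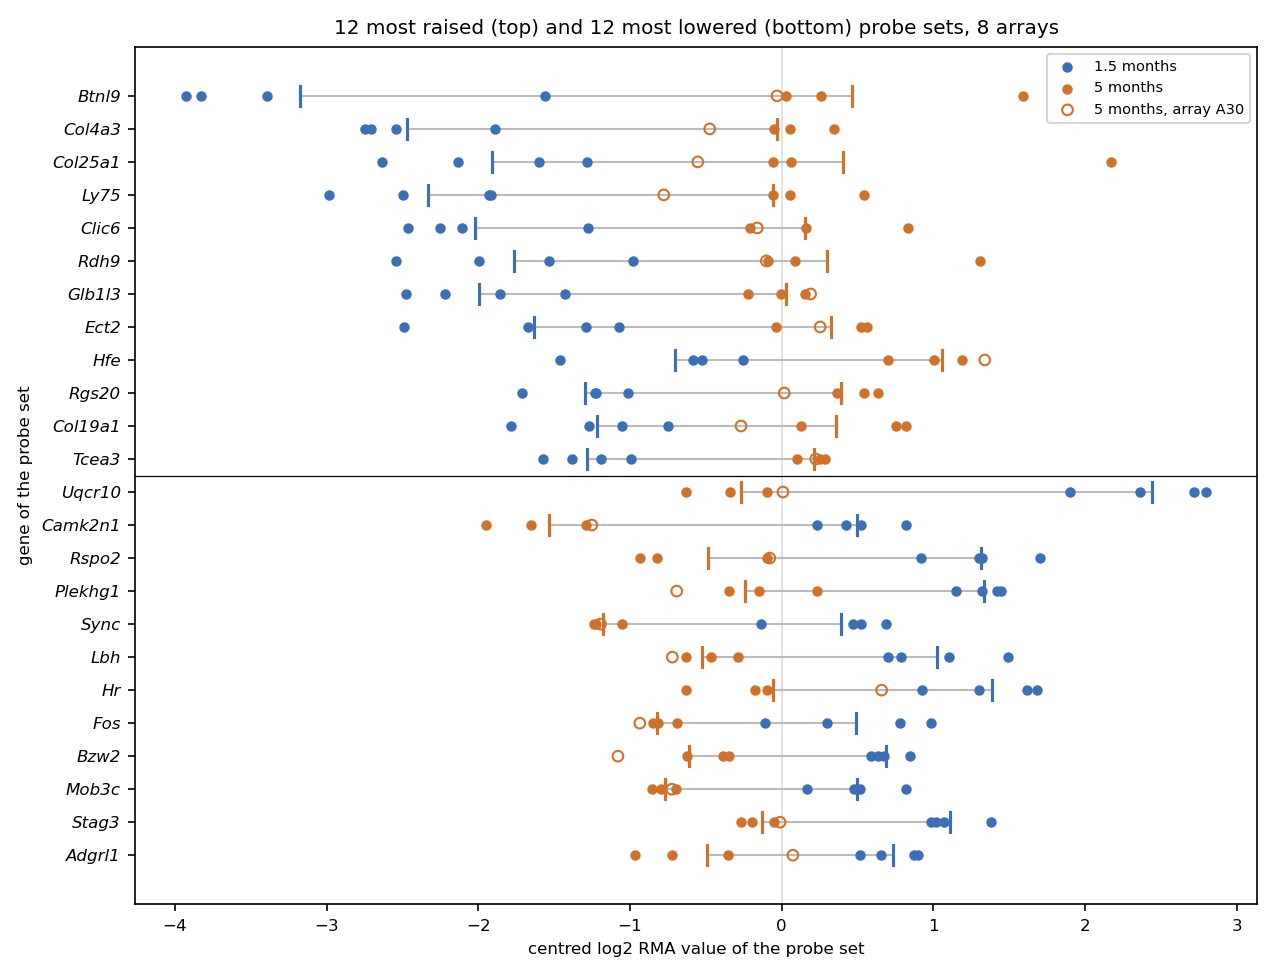
Centred log2 value (x axis) of the 12 most raised and 12 most lowered probe sets (y axis, by gene) on the 4 arrays of 1.5 months (blue) and the 4 of 5 months (orange, with A30 as a ring); vertical ticks are the means of the 4 arrays. The ages do not overlap in any row, as the choice of rows required, and D21 sets the highest blue point of Btnl9 at -1.56.

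The nuclear genes of oxidative phosphorylation were lower at 5 months. Of 74 measured subunits of complexes I to IV and ATP synthase, 19 fell, 0 rose and 55 did not pass. Over all genes 1.07% fell and 1.12% rose. Of the 74 differences, 68 were below 0. Their median was -0.33 with Uqcr10 and without it, against -0.00 over all 18193 genes, of which 50.3% were below 0. The median of the 74 was 0.06, 0.02, 0.11 and 0.18 on C21, B21, D21 and E21 and -0.38, -0.10, -0.17 and -0.28 on A29, B29, C29 and A30, so the ages did not overlap. Without A30 the median was -0.31, again with 68 of 74 below 0, and 7 genes passed. On the 4 arrays of 12 months the list median ran from -0.05 to 0.24.

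Within the chain, complex III had 4 of 9 genes lower: Uqcr10 (-1.66 as the mean of its probe sets, adjusted p = 4.36e-05), Uqcr11 (-0.72), the hinge protein gene Uqcrh (-0.45) and Uqcrq (-0.36). Complex I had 8 of 34 lower, among them Ndufa1 (-0.76), an X-linked subunit, Ndufa13 (-0.56), Ndufa8 (-0.55) and Ndufa3 (-0.55). ATP synthase had 5 of 17 lower, with Atp5e (-0.72), Atp5d (-0.58), Atp5mpl (-0.53) and Atp5k (-0.50), and complex IV had 2 of 10, Cox6b1 (-0.60) and Cox6a1 (-0.53). Complex II, which also belongs to the citric acid cycle, had 0 of 4. Apart from Uqcr10 the changes were small, since only 4 of the other 73 genes fell by more than 1.5-fold. Uqcr10 passed with each of the 8 arrays left out, Uqcr11 in 7 of 8, and Ndufa13 and Atp5d in 6, while Uqcrh, Uqcrq, Atp5e, Atp5mpl, Atp5k, Ndufb9, Ndufb10 and Ndufb11 each lost the call in all 8. The 7 genes that passed without A30 were Uqcr10, Uqcr11, Ndufa8, Ndufa13, Ndufa3, Ndufs5 and Atp5d. With the block on the sample code number only Uqcr10 of the 74 passed.

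**Figure D2:**
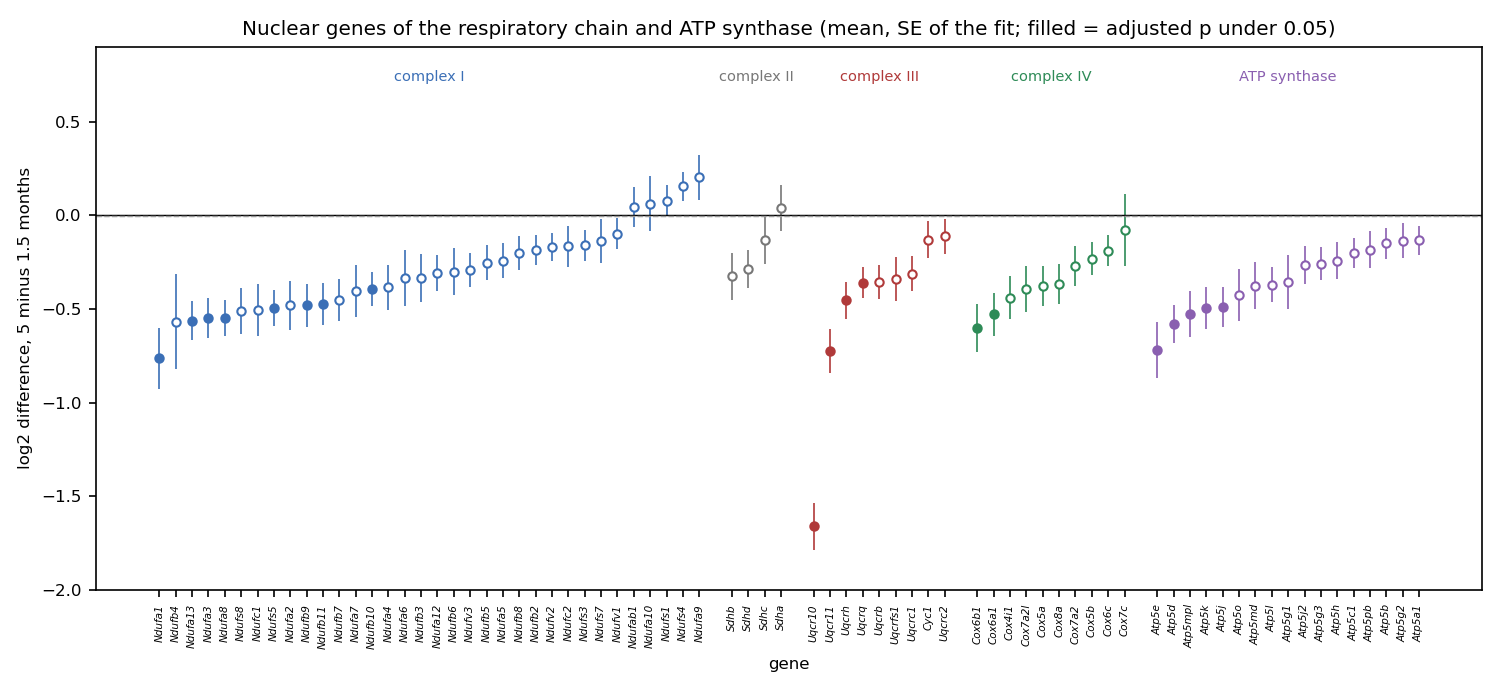
Log2 difference, 5 minus 1.5 months, with the standard error of the fit (y axis), for each of the 74 nuclear genes of the respiratory chain and ATP synthase (x axis), with filled points at an adjusted p under 0.05. Uqcr10, at -1.66, lies far below the others, and 68 of the 74 points are below 0.

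Uqcr10 has a neighbour that moved with it. RefSeq (GRCm38.p6) places Uqcr10 on the minus strand at chr11:4701968-4704344 and Zmat5, which encodes a zinc finger protein of the minor spliceosome, on the plus strand at chr11:4704656-4737669, so that the genes start 312 bases apart and run away from each other. Zmat5, with 1 probe set, was at 0.66, 0.51, 0.38 and 0.42 at 1.5 months and at -0.44, -0.17, -0.24 and 0.01 at 5 months. Its difference was -0.70 (SE 0.16), with an adjusted p of 0.0393 over genes and 0.0534 over probe sets, so it passed on the first count only, and over genes the call was lost without any of the 8 arrays except A30 (adjusted p = 0.0440). The stretch that the promoter windows of both genes share (250 bases before to 50 after each start), chr11:4704406-4704594 on the plus strand, is shown here because it lies between their starts. It is 37% G and C. The median for the windows of all genes was 58.7%, but those are whole windows, which also hold the bases around each start. The shared stretch held none of the motifs searched below.
Uqcr10 and Zmat5 shared stretch: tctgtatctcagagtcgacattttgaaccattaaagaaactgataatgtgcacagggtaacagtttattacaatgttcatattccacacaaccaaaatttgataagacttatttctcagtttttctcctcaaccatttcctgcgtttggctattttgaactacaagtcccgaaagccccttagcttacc

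The letters CCGGAAG, the core bound by ETS factors, and GCGCATGCG, the core bound by NRF1, both known from promoters of mitochondrial genes, were looked for on both strands of the windows. CCGGAAG was in the windows of 17 of the 62 respiratory chain and ATP synthase genes with a RefSeq window (27.4%), of 7 of the 16 such genes that fell (43.8%), of 18 of 37 cytosolic ribosomal protein genes (48.6%) and of 2165 of all 14452 genes with a window (15%). GCGCATGCG was in 7 of the 62 (11.3%) and in 3.09% of all. CCGGAAG was also in 20.9% of the windows of genes that rose and 21.4% of those of genes that fell. Over all genes the median difference was -0.01 with CCGGAAG and 0.00 without it. The windows of Uqcr11, chr10:80406772-80407071 on the minus strand, and Atp5e, chr2:174464052-174464351 on the minus strand, are shown as lowered subunits that hold CCGGAAG, with matches to either motif, on either strand, in capitals. These matches describe the letters only.
Uqcr11: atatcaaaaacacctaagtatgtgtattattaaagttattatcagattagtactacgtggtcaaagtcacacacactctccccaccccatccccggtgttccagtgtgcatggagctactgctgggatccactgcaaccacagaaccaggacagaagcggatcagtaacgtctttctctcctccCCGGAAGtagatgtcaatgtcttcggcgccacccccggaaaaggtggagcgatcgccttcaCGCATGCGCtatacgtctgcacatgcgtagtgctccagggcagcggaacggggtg
Atp5e: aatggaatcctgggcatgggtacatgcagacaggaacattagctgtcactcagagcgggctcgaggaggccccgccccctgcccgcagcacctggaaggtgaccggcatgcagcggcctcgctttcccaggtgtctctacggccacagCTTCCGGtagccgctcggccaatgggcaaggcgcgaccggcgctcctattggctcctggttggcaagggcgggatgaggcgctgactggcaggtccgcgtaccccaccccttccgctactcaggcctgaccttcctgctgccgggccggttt

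Other lists of the mitochondrion and of protein synthesis were lower too. Of 71 mitochondrial ribosomal proteins 5 fell and 0 rose, with a median of -0.18 and 60 of 71 below 0. Mrpl14 was at 0.33, 0.21, 0.08 and 0.17 at 1.5 months and at -0.83, -0.55, -0.72 and -0.40 at 5 months, a fall of 0.82 (SE 0.11, adjusted p = 0.00429), and Mrps21 fell by 0.59. Both passed with each of the 8 arrays left out. Of 42 measured cytosolic ribosomal proteins 5 fell (Rps18, Rps26, Rpl27, Rps28 and Rpl38, by 0.43 to 0.53) and 0 rose, with a median of -0.33, and without A30 only Rps18 passed. Pseudogenes of ribosomal proteins are many, and 34 of the 76 listed genes were not measured by a probe set of 1 gene only. In the citric acid cycle 1 of 17 genes fell, Suclg1 (-0.42), and of 18 glycolysis genes none passed with all arrays. Ppa2, the mitochondrial inorganic pyrophosphatase, fell by 0.74 (SE 0.13, adjusted p = 0.0161).

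**Figure D3:**
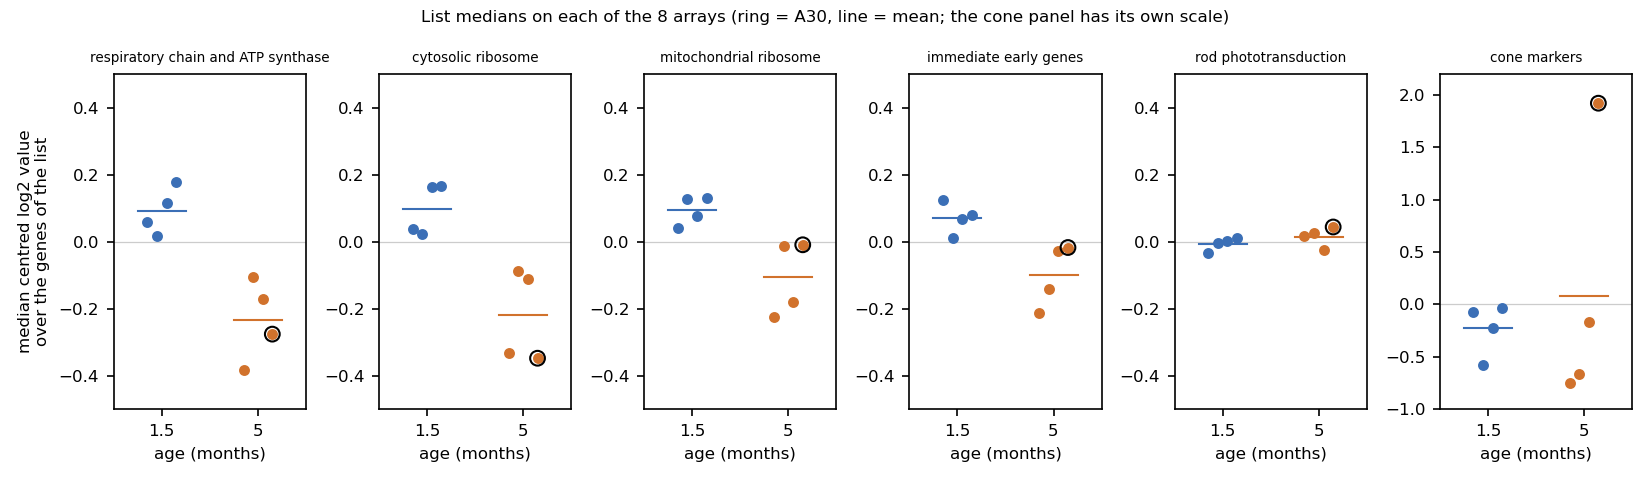
Median centred log2 value (y axis) over the genes of 6 lists on each of the 8 arrays, by age in months (x axis), with the mean of 4 arrays as a line and A30 ringed. The respiratory chain, ribosome and immediate early lists lie lower on all 4 arrays of 5 months than on any of 1.5 months, the rod list stays near 0 on all 8, and the cone list is high on A30 at 1.92.

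The genes that fell were short and those that rose were long. The median RefSeq span was 44778 bases for 200 genes that rose, 9356 for 194 that fell and 20222 for all. Without A30 the medians were 53633 and 10887. In 10 bins of all genes by span, the median difference went from -0.04 in the shortest bin and -0.05 in the next to 0.03 in the longest. Most respiratory chain genes are short, and 52 of the 74 span under 10000 bases. The median of these 52 was -0.37, against -0.04 for the 5390 genes of under 10000 bases outside the respiratory chain and cytosolic ribosome lists, of which 1.43% fell. The control probe sets for the 5′ and 3′ ends of beta-actin moved as well. The 5′ minus 3′ value, on the centred scale, was -0.14 to -0.06 at 1.5 months and 0.04, 0.06 and 0.13 on A29, B29 and C29, with A30 at -0.10. The same value for Gapdh did not rise on these arrays, and was -0.01 to 0.04 at 1.5 months and -0.06, -0.01, 0.03 and -0.16 on A29, B29, C29 and A30. The part of RNA quality in these differences was not tested.

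**Figure D4:**
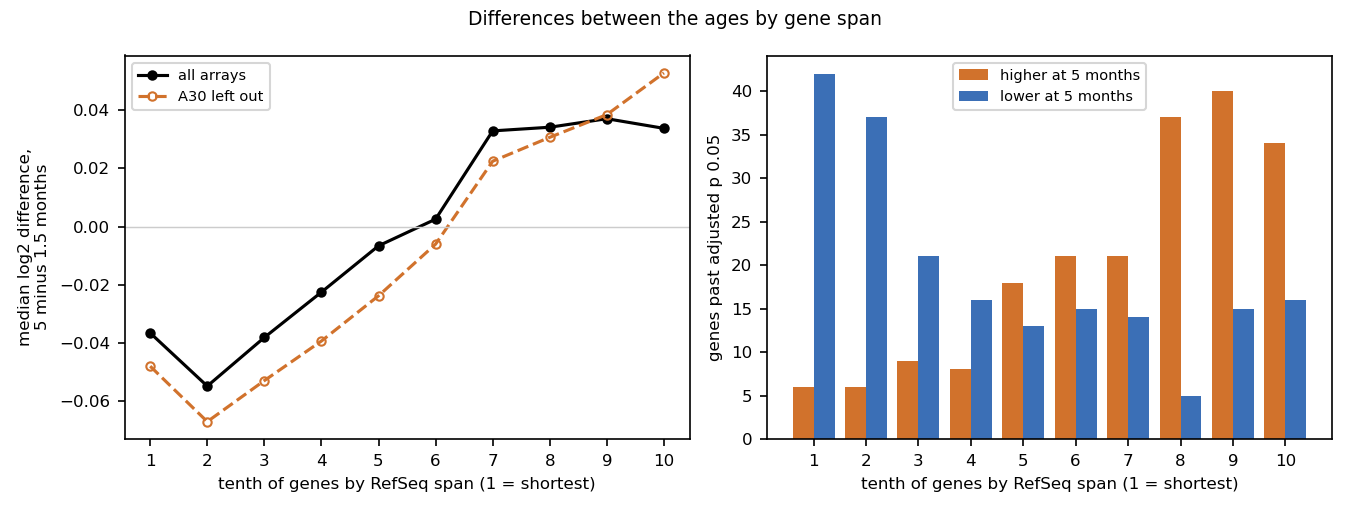
Left, median log2 difference, 5 minus 1.5 months (y axis), in 10 bins of all genes ordered by RefSeq span (x axis), with all arrays (black) and without A30 (orange, dashed). Right, number of genes that rose or fell in each bin: the shortest bin holds 42 that fell and 6 that rose, the longest 16 and 34.

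Of 34 basement membrane and matrix genes, 4 rose and 1 fell with and without A30. By the mean of the probe sets of a gene, Col4a3 rose by 2.31 (SE 0.17, adjusted p = 4.36e-05), Col25a1 by 1.28, Hpse, the heparanase that cuts heparan sulfate, by 0.91, and Col4a4, another collagen IV chain, by 0.75 (SE 0.13, adjusted p = 0.0134). Timp1, an inhibitor of matrix metalloproteinases, fell by 0.45. The list median was 0.09, and 29 of the 34 did not pass. Without E21 the call of Col4a4 was lost. Col4a4 was at -0.46, -0.36, -0.31 and -0.64 at 1.5 months and at 0.28, 0.01, 0.61 and 0.36 at 5 months.

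Col4a4 and Col4a3 lie head to head. In RefSeq the Col4a4 transcript used for the window starts at chr1:82586849 on the minus strand and Col4a3 at chr1:82586921 on the plus strand, 72 bases apart. Both rose, though Col4a3 by far the more. The window of Col4a4, chr1:82586800-82587099 on the minus strand, is shown with the bases between both starts in capitals, and it held neither CCGGAAG nor GCGCATGCG.
Col4a4: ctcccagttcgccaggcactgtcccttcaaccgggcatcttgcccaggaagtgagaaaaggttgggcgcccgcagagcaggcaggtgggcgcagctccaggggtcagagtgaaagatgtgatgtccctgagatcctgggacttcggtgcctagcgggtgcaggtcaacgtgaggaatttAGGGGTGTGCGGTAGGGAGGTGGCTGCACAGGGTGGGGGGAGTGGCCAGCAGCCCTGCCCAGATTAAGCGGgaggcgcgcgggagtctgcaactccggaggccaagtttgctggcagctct

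Irs1, which carries the signal of the insulin receptor, lies on the same stretch of chromosome 1 at chr1:82233105-82291439. It was at -0.95, -1.79, -1.51 and -1.14 at 1.5 months and at 0.08, -0.06, -0.08 and 0.06 at 5 months, a rise of 1.35 (SE 0.17, adjusted p = 0.00405 over genes). It passed with each of the 8 arrays left out and was the 1 of 34 genes of insulin and IGF signalling that passed.

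Among genes of antigen presentation, Hfe was at -0.91, -1.10, -1.32 and -1.07 at 1.5 months and at 0.65, 0.57, 0.41 and 0.78 at 5 months as the mean of its probe sets, a rise of 1.70 (SE 0.12, adjusted p = 4.36e-05). Erap1, which trims peptides for class I molecules, rose by 0.68, and both passed with each of the 8 arrays left out, as 2 of 19 genes of class I antigen presentation. Of 31 complement and innate immunity genes 5 rose: Pros1, protein S, by 0.86, Cd59a, an inhibitor of the membrane attack complex, by 0.77, Il18 by 0.71, Irf1 by 0.66 and Ikbkg by 0.48. Gas6, a ligand of the TAM receptors as is protein S, fell by 0.45. Without A30, Pros1 and Irf1 still passed on the higher side. Pros1 was the only one of the 5 to pass with each of the 8 arrays left out. None of the 13 microglia and macrophage markers passed, which is common for so few genes at the shares over all genes.

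Of 33 immediate early and stress-activated genes, 4 fell and 0 rose: Fos, Nr4a1 (-0.82), an orphan nuclear receptor, and the phosphatases of MAP kinases Dusp1 (-0.82) and Dusp5 (-0.73). The list median was -0.13, and without A30 -0.20 with 3 that fell. Nr4a1 was at 0.40, 0.38, 0.50 and 0.52 at 1.5 months and at -0.47, -0.22, -0.80 and 0.00 at 5 months, with A30 nearest to the younger arrays. Dusp1 lost its call in 7 of the 8 fits with an array left out. The motif TGACGT, the core of the cAMP response element, was in the windows of 9 of 28 genes of this list (32.1%) and 1591 of 14452 genes (11%), and that of Fos, chr12:85473640-85473939 on the plus strand, holds it (capitals).
Fos: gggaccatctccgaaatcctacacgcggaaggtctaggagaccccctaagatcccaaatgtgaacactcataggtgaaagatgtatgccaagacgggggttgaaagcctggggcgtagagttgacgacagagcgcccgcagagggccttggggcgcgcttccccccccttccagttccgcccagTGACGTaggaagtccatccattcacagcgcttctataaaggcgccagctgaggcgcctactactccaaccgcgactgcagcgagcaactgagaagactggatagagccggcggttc

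Ion channel and calcium genes moved both ways, with 4 of 33 higher and 2 lower in both fits. Prkd1, protein kinase D1, was at -0.49, -0.53, -0.51 and -0.58 at 1.5 months and at 0.16, 0.14, 0.25 and -0.12 at 5 months, a rise of 0.64 (SE 0.09, adjusted p = 0.00553). Clic6 (2.04 over its probe sets), Cacnb2 (0.78), a calcium channel subunit, and Itpr2 (0.46), an inositol trisphosphate receptor, rose, and Camk2n1 (-1.05) and Prkaca (-0.53), the catalytic subunit of protein kinase A, fell. Among genes of the cell cycle, Ect2, Ccna2 (0.76), cyclin A2, and Dsn1 (0.61) rose and Stag3 fell, out of 36.

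Signalling and transcription gave single genes. Tcf7l2, the main effector of Wnt signals, was at 1.05, 0.46, 1.05 and 0.69 at 1.5 months and at -0.23, 0.03, -0.18 and -0.25 at 5 months, a fall of 0.97 (SE 0.15, adjusted p = 0.00846). In the same list of 52, Acvr2a, an activin receptor, rose by 0.56 and Fzd5, a Wnt receptor, by 0.48. Ahrr, the repressor of the aryl hydrocarbon receptor, rose by 0.78 and Thra, a thyroid hormone receptor, fell by 0.52, of 27 nuclear receptor genes. Of 13 measured histone genes H2aw rose, by 1.08. Rarb, a retinoic acid receptor, rose by 0.68 and did not pass without A30 (adjusted p = 0.055). Tcf7l2, Acvr2a, Ahrr and H2aw passed with each of the 8 arrays left out. Gng11, a G protein gamma subunit, rose by 0.87 (SE 0.12) and the kinase Pak7 by 0.62 (SE 0.10), both in all 8 of these fits. Of 50 genes of RNA splicing and nuclear RNA binding 1 rose, Zc3h13 (0.51), and 38 of the 50 differences were above 0, with a median of 0.13 in both fits.

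In lipid and protein turnover, Elovl1, an elongase of very long fatty acids, fell by 1.45 (SE 0.29, adjusted p = 0.0269). Its values at 1.5 months were spread, at -0.06, 0.46, 0.16 and 0.82, and those at 5 months were close, at -1.06, -1.22, -1.12 and -1.01, and the call held in 3 of the 8 fits with an array left out. Acadm (0.54) and Abcd3 (0.66), of fatty acid oxidation and the peroxisome, rose out of 20. Map1lc3a, an autophagosome protein, fell by 0.88, the lysosomal protease Ctsd by 0.58 and Gabarap by 0.60, of 43 lysosome and autophagy genes, in both fits. The ubiquitin ligase genes Huwe1, Wwp1, Herc4 and Cul3 rose by 0.34 to 0.53, of 47, and none of the 4 passed without A30. In the list of synaptic genes, Syt9, a synaptotagmin, fell by 0.83 and Erc2, of the active zone, rose by 0.46, of 29, and Erc2 did not pass without A30.

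**Figure D5:**
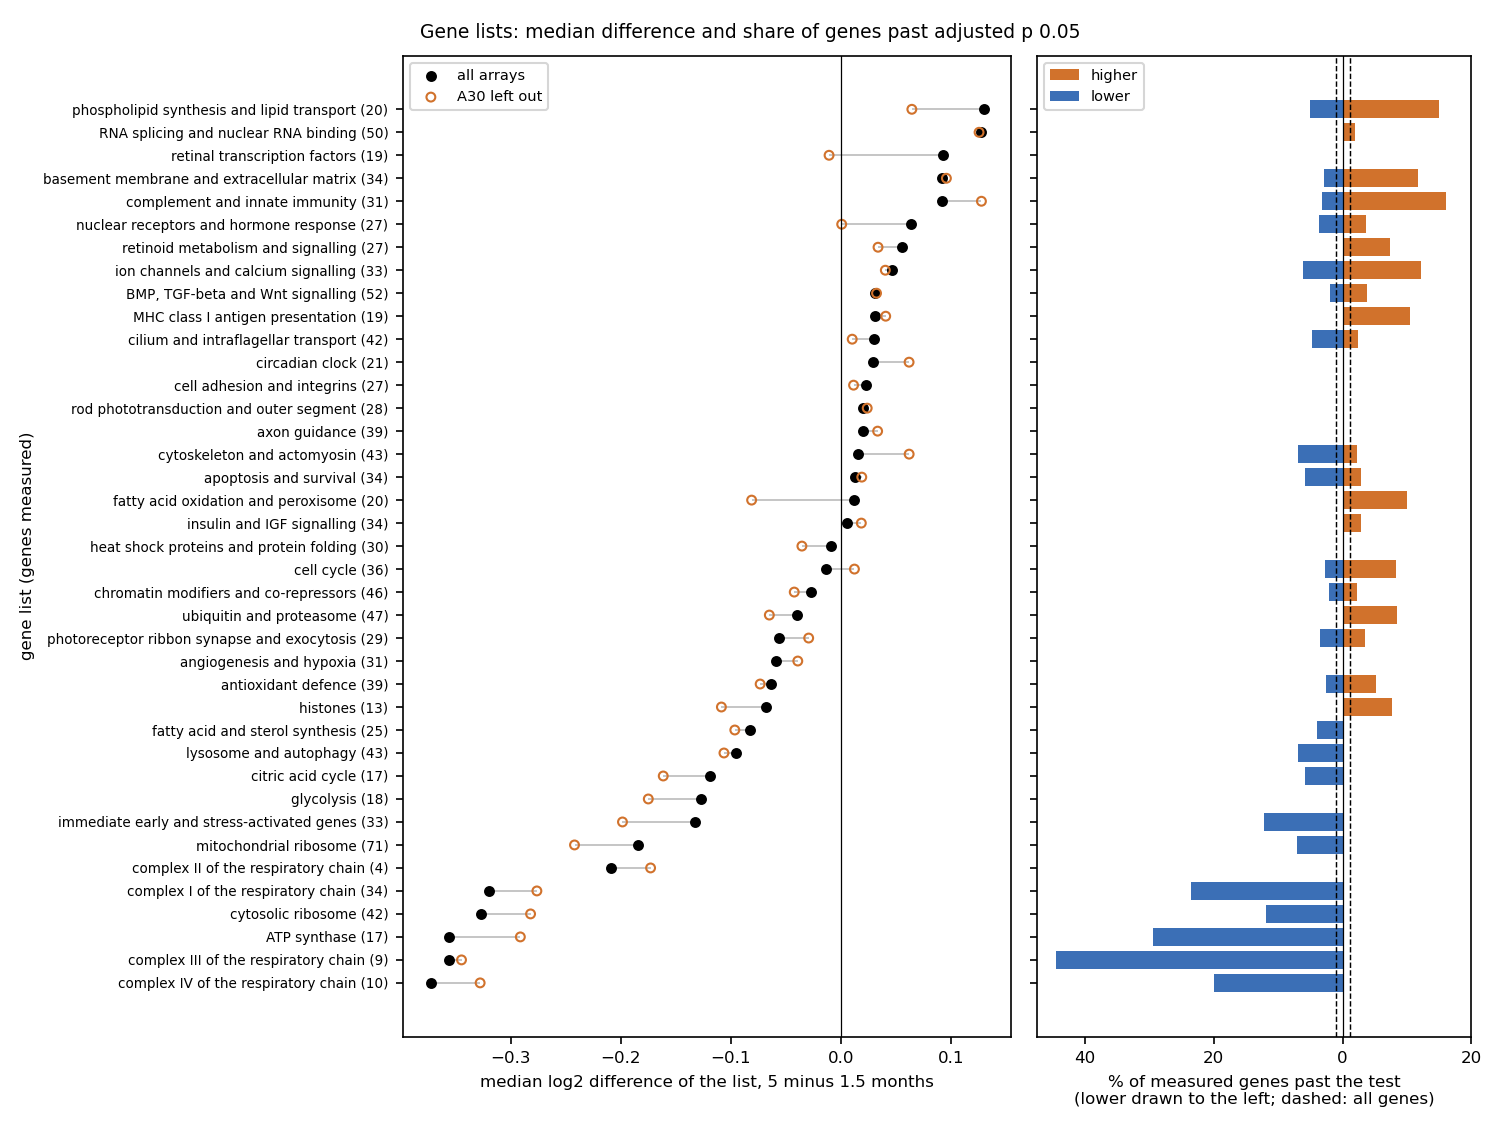
Left, median log2 difference (x axis) of each of the 39 gene lists (y axis, genes measured in brackets) with all arrays (black) and without A30 (ring). Right, share of the genes of a list that rose (orange) or fell (blue, to the left), with dashed lines at the shares over all genes, 1.12% and 1.07%. The respiratory chain and ribosome lists lie lowest.

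Across the 39 lists, 98 of 1186 genes passed, 42 higher and 56 lower, against 1.12% higher and 1.07% lower over all genes. Of the 98, 64 also passed without A30 and 21 with each of the 8 arrays left out. Several lists hold genes that the study drew from these arrays, so their counts are not independent of the values. With all arrays, no gene passed in 9 lists: rod phototransduction, retinal transcription factors, complex II, glycolysis, cell adhesion, axon guidance, circadian clock, heat shock proteins, and angiogenesis and hypoxia. These lists hold 4 to 39 measured genes, and lists so short often hold no called gene at the shares over all genes. Neither 0 calls nor a single call is therefore a result about a list. Without A30, 1 gene was lower in each of 3 of these lists: Slc16a3 in glycolysis, Cadm3 in cell adhesion and Sema4d in axon guidance.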

How the data were processed

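Rods sorted from Nrlp-EGFP mice were measured on 12 Affymetrix Mouse Genome 430 2.0 arrays, 4 at each of 3 ages. The authors amplified the RNA and made the deposited log2 values by the Robust Multichip Average method (background correction, quantile normalization, summarization), and the sources used here name no software version. The values of each probe set have a median of 0, so brightness filters could not be used. The number of arrays limits the precision, and p-values measure only the spread between these samples.

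The 45037 probe sets left after 64 controls were fitted jointly for the 3 ages with limma 3.58.1 under R 4.3.3, and the contrast of 5 with 1.5 months was adjusted by the Benjamini-Hochberg method over all of them, with calls at an adjusted p under 0.05 and 1.5-fold. The model and the code were tested on simulated data with independent noise on each array. Those data held no block by sample code number, so they do not test the model on such a block. Platform annotation gives 1 gene for 34945 probe sets, several for 932 and none for 9160. A gene is the mean of the probe sets annotated to it alone (18193 genes), adjusted over genes, called at an adjusted p under 0.05. "Rose" and "fell" are calls.

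The members and the gene lists were chosen with earlier results of these data known. Genes could be named as the 12 most raised and 12 most lowered probe sets passing with and without A30 and not overlapping between ages, as up to 4 members of smallest p of a list, as genes that the study names, as sex-linked genes, or as neighbours sharing a promoter window. Other called members of lists, genes that passed with the block or stood apart on 3 arrays, Gnat1 and Pde6b, and the examples of windows were chosen after their values were seen. Promoter windows and gene spans are those of RefSeq, GRCm38.p6. The alternatives were each array left out, only 8 arrays, the sample code number as a random block, an unmoderated test of the same contrast, array medians set equal, array weights, a further quantile normalization, 2-fold, adjustment over probe sets with 1 gene, and the probe set of largest SD per gene. Those added after seeing the data were the 8 arrays without A30, and the fit without C21, B21 and E21.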

Additional observations from a re-analysis of the deposited data

Results flagged for a closer look

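In each age of 4 arrays, the highest or lowest array was called outlying where its gap to the next array exceeded Dixon's critical share of the range. This was done in 314 groups of values. Chance flags about 1 in 20 groups, so many flags arise by chance among so many groups. A flag alone is not a result about an array. At 5 months, A30 stood apart for Xist, at -7.81 with the others at 0.42 to 0.60, for Eif2s3y, at 5.66 with the others at -0.57 to -0.32, and for the median of the Y-linked genes, at 4.42. A30 also stood apart for Birc5, at -0.12 with the others at -0.38 to -0.35, for Dsn1, at 0.27 with the others at 0.61 to 0.68, and for the median of the astrocyte markers, at -0.28 with the others at 0.09 to 0.13. C29 was the outlying array for Rdh9, at 1.31 with the others at -0.10 to 0.09, and for Hpse, at 0.23 with the others at -0.03 to 0.00. A29 was the outlying array for Ctsd, at -0.44 with the others at -0.22 to -0.19.

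At 1.5 months, E21 was outlying for Rarb, at -1.14 with the others at -0.59 to -0.48. B21 was outlying for the median of antioxidant genes, at -0.16 with the others at 0.03 to 0.06, and of chromatin genes, at 0.11 with the others at 0.03 to 0.04. D21 was outlying for the median of retinal pigment epithelium markers, at 0.24 with the others at -0.17 to -0.11, and of lens markers, at -0.0875 with the others at -0.03.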

How the results depend on the processing

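No paired analysis was possible because the sample codes share no replicate across ages, and each code number occurs at 1 age. With each of the 12 arrays left out in turn, higher probe sets numbered 73 to 296 and lower ones 28 to 234, and higher genes 42 to 231 and lower genes 17 to 253. The fewest came without E21, except for lower probe sets, without A29. Leaving out C21, B21, E21, A29, B29 or C29 moved all 4 counts by over 1.5 times, A30 both probe set counts, and D21 or B16 the lower genes. With the sample code block there were 7 higher and 4 lower probe sets and 4 higher and 1 lower genes. An unmoderated test of the same contrast gave 156 and 83 probe sets, and 104 lower genes. The study itself used an analysis of variance over the 3 ages, which was not rerun. Another quantile normalization gave 430 and 425 probe sets and 334 and 379 genes, and array weights 450 and 400 probe sets and 460 and 514 genes. Only the 8 arrays of the contrast gave 291 lower probe sets, and the same without A30 gave 318 lower genes. At 2-fold, 67 and 64 probe sets remained past the threshold. Without C21, B21 and E21, with D21 alone assumed to vary like the other groups, 0 and 0 probe sets (224 and 277 at an unadjusted p under 0.05, by limma) and 1 and 1 genes passed. The other settings were within 1.5 times of the reported counts. None of the called list genes or of the 24 most changed probe sets changed sign under any setting. For the 24, chosen with ages that do not overlap, leaving out arrays could not have changed the sign. The 4 arrays of an age limit the precision, and the values hold no levels.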

Other observations

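On 23 probe sets the arrays C21, B21 and E21 stood apart from D21 and from all arrays of the later ages by more than 1 log2 unit, while no other set of 3 arrays of 1.5 months did so on any probe set. On these probe sets other than that of Btnl9, D21 was near the older arrays. Tmem87a, a membrane protein of the Golgi, was at -5.01, -4.05 and -4.28 on C21, B21 and E21, at -0.12 on D21 and at 0.18 to 0.45 on the arrays of 5 months. Tyro3, a TAM receptor of protein S and Gas6, was at 3.24, 3.04 and 3.01 on the same 3 arrays, at -0.15 on D21 and at -0.64 to -0.02 at 5 months. Stk35, a kinase, was at -3.46, -3.60 and -3.53, at 0.05 on D21 and at 0.02 to 0.40 at 5 months.

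Of the 23, 11 have a single named gene, and 7 of these 11 probe sets, of 6 genes (Tyro3, Tmem87a, Bloc1s6, Stk35, Tgm3 and Insm1), lie on chromosome 2 at chr2:119797740-146225020 (GRCm38.p6). The other 4 are of Btnl9, Synj2bp, Cyhr1 and Parl, on 4 other chromosomes. Tyro3, Tmem87a, Stk35, Insm1 and Btnl9 are among the 7 of the 23 that passed, and without A30 Tyro3 and Tmem87a each had an adjusted p of 0.0795, Stk35 of 0.0865 and Insm1 of 0.0813. With D21 as the only array of 1.5 months, the difference was 0.38 for Tmem87a and -0.16 for Tyro3, and 2.02 for Btnl9. The cause of this pattern was not tested.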
